A study of Arabidopsis thaliana with 28 samples.

Results

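ATREP elements belong to the Helitrons, DNA transposons that move by a rolling-circle mechanism and are found in most plant genomes. Complete Helitrons encode a protein in which a replication initiator is joined to a helicase. ATREP elements do not encode it and are classed as non-autonomous, so their movement depends on the protein of other Helitrons. In Arabidopsis thaliana the silencing of transposable elements rests largely on DNA methylation and on dimethylation of histone H3 at lysine 9.

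The families described here are those whose name starts with ATREP in the authors' deposited table of transposable element families, 7 of 83 named families: ATREP15, ATREP3, ATREP10D, ATREP4, ATREP10A, ATREP9 and ATREP6. All 7 carry the superfamily Helitron and the class RC (rolling circle) in that table, where 14 families are Helitrons. The other 7 have names that start with HELITRON. The name alone chose the members, but the table lists no named family with an adjusted p above 0.0499, so each member had already passed the authors' test between the genotypes. ATREP families outside that list are not analysed here.

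The table compares 3 RNA libraries of caa39 with 3 of wild-type Col-0 (WT). The mutant caa39 carries an altered TOP6A, a subunit of topoisomerase VI, an enzyme that passes one DNA double strand through another, and the genotype is represented by this mutant line alone. All libraries were made from the aboveground parts of 6 day-old seedlings with a stranded mRNA kit, and the series design calls them biological replicates. Histone, input chromatin and bisulfite libraries of the series are not analysed here.

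Values are normalised reads, that is, reads divided by a size factor of the library, and were solved from the deposited group means as whole reads of each library. Letters a, b and c order the libraries of a genotype by size factor and carry no replicate number. The listed entries, unassigned elements included, held 20791 to 31566 reads per caa39 library and 22924 to 26678 per WT library. The 7 ATREP families together held 2488 reads in caa39 and 2418 in WT. A family sums reads over dispersed copies, so it has no single position in the genome. Neither the length nor the number of copies behind a family is given in the sources used here. Read numbers compare genotypes within a family and are not expression per length. In whole aerial parts, a lower share of the cells that transcribe a family and less RNA per cell cannot be told apart.

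The question put to these families was whether their transcript levels differed in the topoisomerase VI mutant, and whether they moved together. All 7 had an adjusted p below 0.05 in the authors' deposited table, as had 100% of the listed families by construction. They did not move as a block: 6 of 7 fell in caa39 and ATREP15 rose. The falls ran from a shallow change in ATREP3, at 0.746 of the WT level, to near disappearance in ATREP6, at 0.0535 of the WT level, in the authors' deposited table. ATREP15 stood at 3.47 times the WT level in the same authors' deposited table. Among all 83 listed families 51.8% were lower and 48.2% higher in caa39, against 85.7% and 14.3% of the ATREP families. Changes of at least 2-fold were found in 4 of the 7, and in 61.4% of the listed families. An adjusted p below 0.01 was found in 6 of the 7, and in 74.7% of the listed families. In all 7 the caa39 libraries did not overlap the WT libraries, as in 98.8% of the listed families. No test of these shares is given, because the families were singled out with these results known and had all been listed as changed.

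**Figure D1:**
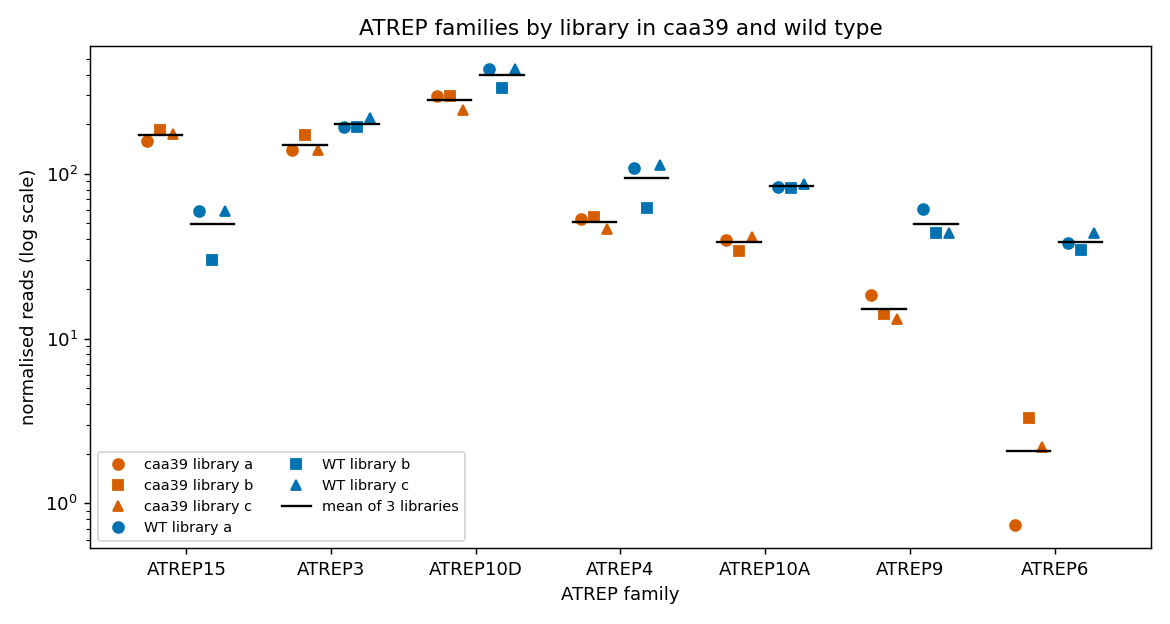
Normalised reads (y axis, log scale) of the 7 ATREP families (x axis) in each library, with caa39 in orange and WT in blue; symbols give the library letter and black bars the mean of 3 libraries. ATREP15 is higher in all 3 caa39 libraries, the other 6 families are lower in all 3, and ATREP6 has between 0.732 and 3.31 normalised reads in caa39.

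ATREP15 was the only ATREP family that rose. It had 157, 185 and 174 normalised reads in caa39 libraries a, b and c, against 59.4, 29.9 and 59.6 in WT libraries a, b and c. The lowest caa39 library was 2.64 times the highest WT library, so the genotypes did not overlap. The means were 172 ± 14.0 in caa39 and 49.6 ± 17.0 in WT (SD, n = 3 each), on 598 and 131 reads. In the authors' deposited table it had an adjusted p of 4.61e-08 and rank 23 of 83 from the highest ratio. In limma, fitted over all 83 listed families, its log2 ratio was 1.85 with an SE of 0.29 and a Benjamini-Hochberg adjusted p of 0.00182.

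ATREP6 lay at the opposite end. Its 3 caa39 libraries held 1, 4 and 2 reads, or 0.732, 3.31 and 2.19 normalised reads. The WT libraries held 36, 30 and 36 reads, or 38.2, 34.6 and 43.8 normalised reads. The lowest WT library was therefore 10.4 times the highest caa39 library. The ratio of pooled reads was 0.0518 of WT, with an exact 95% interval of 0.0203 to 0.111 that covers counting error only. Only 1 of the 83 families listed had a lower ratio than ATREP6 in the authors' deposited table, where its adjusted p was 1.68e-11. The limma log2 ratio was −4.07 (SE 0.43, adjusted p = 0.000447). With so few caa39 reads it moves with the pseudocount: it was −4.38 with 0.1 and −3.37 with 2 in place of 0.5.

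ATREP9 and ATREP10A fell to 0.305 and 0.457 of their WT level in the authors' deposited table. ATREP9 had 18.3, 14.1 and 13.1 normalised reads in caa39 against 61.5, 43.8 and 43.8 in WT. The authors' deposited table gives an adjusted p of 5.05e-05, and the limma log2 ratio was −1.67 (SE 0.20, adjusted p = 0.000742). ATREP10A had 39.5, 33.9 and 41.6 normalised reads in caa39 against 83.7, 81.8 and 86.3 in WT. Neither family had overlapping genotypes, and the lowest WT library was 2.39 times the highest caa39 library in ATREP9 and 1.97 times in ATREP10A. For ATREP10A the authors' deposited table gives an adjusted p of 0.000192, and the limma log2 ratio was −1.13 (SE 0.11, adjusted p = 0.000308).

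ATREP4, ATREP10D and ATREP3 had the shallower falls, with genotypes that lay close to each other. ATREP4 had 53.5, 54.6 and 46.0 normalised reads in caa39 against 108, 62.2 and 113 in WT. ATREP10D had 299, 298 and 243 in caa39 against 431, 334 and 435 in WT. ATREP3 had 139.9, 171 and 139 in caa39 against 193, 192 and 218 in WT. The lowest WT library was 1.14, 1.12 and 1.12 times the highest caa39 library in ATREP4, ATREP10D and ATREP3. The authors' deposited table puts them at 0.543, 0.699 and 0.746 of WT, with adjusted p-values of 0.00965, 0.00465 and 0.0416. In limma the log2 ratios were −0.83 (SE 0.25, adjusted p = 0.0207) for ATREP4, −0.51 (SE 0.15, adjusted p = 0.0193) for ATREP10D and −0.43 (SE 0.12, adjusted p = 0.0165) for ATREP3.

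The limma calls of these 3 families were lost when some single libraries, of either genotype, were left out. The authors' test was not repeated without a library. In limma all 7 ATREP families passed an adjusted p of 0.05, as did 97.6% of the 83 listed families (50.6% lower and 47.0% higher in caa39). All had been listed for passing the authors' test in the same libraries, so these passes are not a second support. Only 4 ATREP families passed without caa39 library c and only 4 without WT library c. The share of all listed families that passed without a library was not counted, so a loss particular to ATREP families is not shown. ATREP3 missed the threshold without caa39 library a (log2 ratio −0.38, limma adjusted p = 0.0514), without caa39 library c (−0.37, limma adjusted p = 0.0508) and without WT library c (−0.37, limma adjusted p = 0.0528). ATREP10D missed it without caa39 library c (−0.41, limma adjusted p = 0.0553), WT library a (−0.45, limma adjusted p = 0.0618) or WT library c (−0.45, limma adjusted p = 0.0587). ATREP4 missed it without the same libraries, at −0.75, −0.71 and −0.68 (limma adjusted p = 0.0671, 0.0674 and 0.0581). Leaving out a library also leaves the test fewer libraries. ATREP15, ATREP10A, ATREP9 and ATREP6 passed whichever library was left out, with adjusted p of at most 0.00926 in limma.

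The limma calls of these 3 families also depend on the total that the reads are scaled to. All listed reads together were lower in caa39, by 0.31 on the log2 scale, and scaling each library to that total raised the log2 ratio by a median of 0.31 over the ATREP families and over all 83. The named families in that total had all been listed as changed between the genotypes. The total is therefore not independent of the differences that it rescales. On the scale of listed reads the same 6 families stayed lower and ATREP15 higher. ATREP3, ATREP10D and ATREP4 then had log2 ratios of −0.12, −0.20 and −0.52 with 95% intervals that include 0 (limma adjusted p = 0.407, 0.273 and 0.116). ATREP10A, ATREP9, ATREP6 and ATREP15 kept their calls at −0.82, −1.37, −3.80 and 2.15 (limma adjusted p of at most 0.00121). The ATREP calls thus numbered 3 lower and 1 higher on the scale of listed reads, against 6 and 1 with the authors' size factors. Over all listed families 34.9% were called lower and 48.2% higher on that scale in limma.

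**Figure D2:**
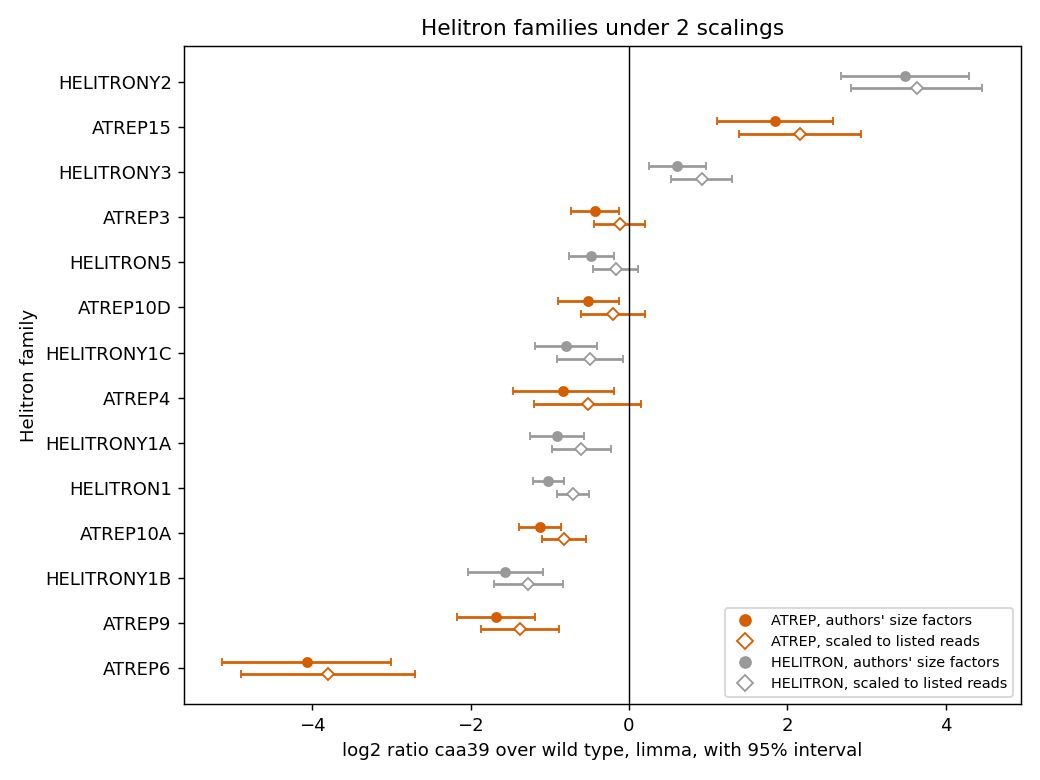
Limma log2 ratio of caa39 over WT (x axis, with 95% intervals) for the 14 listed Helitron families (y axis), with ATREP in orange and HELITRON in grey; filled circles use the authors' size factors and open diamonds scale to the listed reads. ATREP6 and ATREP9 are the lowest points, the intervals of ATREP3, ATREP10D and ATREP4 cross 0 only with the open diamonds, and the top point, HELITRONY2, has no WT reads, so its position depends on the pseudocount.

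Spread between libraries was uneven, and WT library b stood low in most Helitron families. ATREP15 had a WT coefficient of variation of 34.3%, where counting alone would give 15.2%, and ATREP4 had 29.7% against 11.0%. In caa39 the coefficients were 8.12% for ATREP15 and 9.13% for ATREP4, close to or below the 7.17% and 13.1% of counting. WT library b held 0.504 of the mean of the other WT libraries for ATREP15, 0.563 for ATREP4 and 0.771 for ATREP10D. It was the lowest WT library in 6 of the 7 ATREP families, the exception being ATREP9, in 5 of the 6 HELITRON families with WT reads, and in 39.7% of the 73 listed families with reads in every WT library. Without it the limma log2 ratio was 1.52 (SE 0.11) for ATREP15, −1.10 (SE 0.12) for ATREP4 and −0.64 (SE 0.13) for ATREP10D. The directions could not change, because the genotypes did not overlap. The standard errors were smaller, which follows from leaving out the library that stood apart. Why that library is low was not tested.

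ATREP15 and ATREP9 had close WT means and changed in opposite directions in caa39. Their WT means were 49.6 ± 17.0 and 49.7 ± 10.2 normalised reads, while their caa39 means were 172 ± 14.0 and 15.2 ± 2.76 (SD, n = 3 each). The ratio of ATREP15 to ATREP9 within a library, which no scaling can move, was 8.60, 13.2 and 13.2 in caa39 libraries a, b and c, against 0.966, 0.684 and 1.36 in WT libraries a, b and c. Between the genotypes this ratio differed 11.9-fold, by 3.57 on the log2 scale (two-sided exact permutation p = 0.1, which is the lowest value 3 against 3 libraries can give). WT means within 1.5 times that of ATREP6, a limit chosen after the values were seen, were found in 14 other listed families, of which 6 fell and 8 rose in the authors' deposited table. These counts include ATREP9 with the falls and ATREP15 with the rises. Those that fell stood between 0.0962 of WT (ATCOPIA50) and 0.571 of WT (HELITRONY1C), against 0.0535 for ATREP6, in the authors' deposited table. The counting interval of the pooled ATREP6 reads, 0.0203 to 0.111 of WT, includes the ratio of ATCOPIA50.

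The order of the families by normalised reads differed between the genotypes. In caa39 it ran ATREP10D (279.8 ± 31.9), ATREP15 (172 ± 14.0), ATREP3 (150.0 ± 18.3), ATREP4 (51.3 ± 4.69), ATREP10A (38.3 ± 3.97), ATREP9 (15.2 ± 2.76) and ATREP6 (2.08 ± 1.29) (SD, n = 3). Of these neighbours ATREP15 and ATREP3 overlapped between libraries and the others did not. In WT it ran ATREP10D (400.2 ± 57.3), ATREP3 (201 ± 14.4), ATREP4 (94.5 ± 28.0), ATREP10A (83.9 ± 2.26), ATREP9 (49.7 ± 10.2), ATREP15 (49.6 ± 17.0) and ATREP6 (38.8 ± 4.64) (SD, n = 3). There ATREP4 overlapped ATREP10A, ATREP15 overlapped both ATREP9 and ATREP6, and those 2 met at 36 reads each in WT library c. Among the 6 families that fell, the ratios of 0.699 and 0.746 belonged to ATREP10D and ATREP3, which had the most WT reads, and the lowest ratio to ATREP6, which had the fewest. How far the selection of the listed families shapes this order was not tested.

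**Figure D3:**
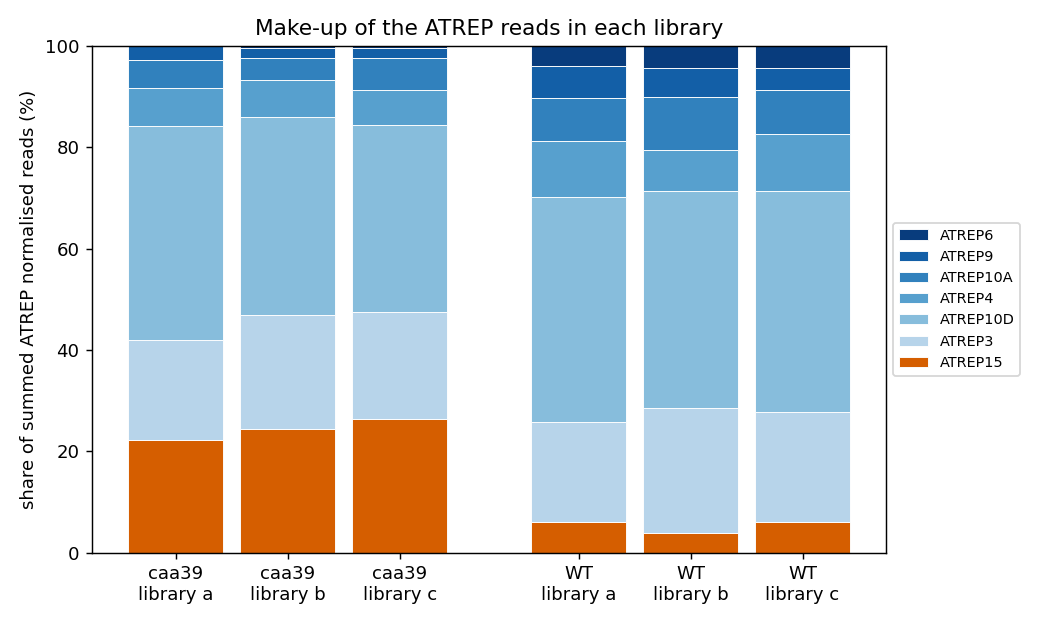
Share of each ATREP family (stacked, y axis in percent) in the summed ATREP normalised reads of each library, with the caa39 libraries on the left and the WT libraries on the right. ATREP15 (orange, at the bottom) takes 22.2% to 26.4% in caa39 and 3.85% to 6.09% in WT, and ATREP6 (darkest blue, at the top) is a thin line in caa39 and 3.91% to 4.44% in WT.

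Shares within the ATREP reads of a library are free of the library's scaling. ATREP15 made up 22.2%, 24.4% and 26.4% of them in caa39 and 6.09%, 3.85% and 5.96% in WT. ATREP6 made up 0.103%, 0.435% and 0.332% in caa39 and 3.91%, 4.44% and 4.38% in WT. ATREP9 made up 2.14% ± 0.390 in caa39 and 5.44% ± 0.976 in WT, and ATREP10A 5.45% ± 0.932 in caa39 and 9.24% ± 1.09 in WT (SD, n = 3 each). ATREP10D remained the family with the largest share, at 39.4% ± 2.67 in caa39 and 43.6% ± 0.670 in WT (SD, n = 3 each). ATREP3 took 21.1% ± 1.39 in caa39 and 22.1% ± 2.48 in WT, and its libraries overlapped (SD, n = 3 each). A share of one family necessarily shrinks as that of ATREP15 grows. Among the other 6 families alone, ATREP10D took 52.1% ± 2.08 in caa39 and 46.0% ± 1.27 in WT, so its direction was the opposite of that with ATREP15 included (SD, n = 3 each). The direction of ATREP3 turned as well, to 28.0% ± 2.28 in caa39 and 23.3% ± 2.32 in WT, with overlapping libraries (SD, n = 3 each). ATREP4, apart with ATREP15 included, overlapped without it, at 9.56% ± 0.127 in caa39 and 10.7% ± 2.09 in WT (SD, n = 3 each). ATREP6 took 0.387% ± 0.228 in caa39 and 4.48% ± 0.272 in WT (SD, n = 3 each).

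Ratios between families were compared for all 21 pairs of the 7. In 17 of them the ratios of the caa39 libraries lay apart from those of the WT libraries, each with the smallest exact permutation p of 0.1 and an adjusted p of 0.124 over the pairs. That is 81.0% of the pairs, next to 80.7% of the 2556 pairs among the 72 listed families with reads in every library. ATREP families thus diverged from each other about as often as listed families in general. The pairs with overlapping ratios were ATREP3 with ATREP10D, ATREP3 with ATREP4, ATREP10D with ATREP4, and ATREP4 with ATREP10A. ATREP3 stood at 0.468, 0.575 and 0.572 of ATREP10D in caa39 and at 0.447, 0.576 and 0.50 of it in WT (exact permutation p = 0.7, two-sided). Their log2 ratio differed by 0.09, with SDs between libraries of 0.17 in caa39 and 0.18 in WT. The largest difference was that of ATREP15 over ATREP6, at 6.33 on the log2 scale.

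**Figure D4:**
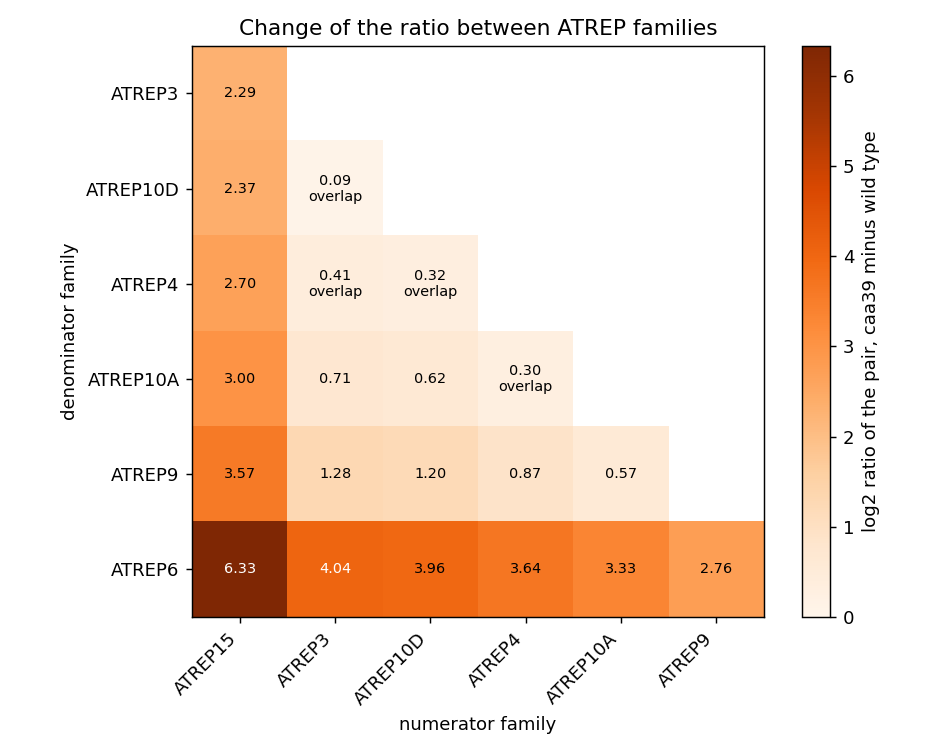
Difference between caa39 and WT in the mean log2 ratio of each pair of ATREP families, numerator on the x axis and denominator on the y axis; darker cells are larger and the word overlap marks the 4 pairs whose libraries overlapped. The column of ATREP15 (2.29 to 6.33) and the row of ATREP6 (2.76 to 6.33) hold the largest differences.

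In the summed ATREP reads the rise of ATREP15 offset part of the other falls. The sum was 708, 759.9 and 659 normalised reads in caa39 libraries a, b and c, against 975, 779 and 999 in WT libraries a, b and c. The means were 709 ± 50.6 in caa39 and 918 ± 121 in WT, a ratio of 0.773 (SD, n = 3 each). WT library b reached almost down to the caa39 libraries, and on the scale of listed reads the genotypes overlapped with a log2 ratio of −0.0677. Without ATREP15 the sum was 537 ± 46.6 in caa39 and 868 ± 104 in WT, a ratio of 0.618 (SD, n = 3 each). Without ATREP10D, the most abundant ATREP family, it was 429 ± 28.9 in caa39 and 517 ± 63.9 in WT (SD, n = 3 each). That is a ratio of 0.829, and the libraries of the genotypes then overlapped. Of the reads of all named families, ATREP made up 4.31% ± 0.218 in caa39 and 4.52% ± 0.744 in WT, with overlapping libraries (SD, n = 3 each). No p is given for sums over families chosen with results known.

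The HELITRON families, which include the autonomous members of the group, were the nearest for comparison. Of these 7, 5 fell and 2 rose in the authors' deposited table, against 6 and 1 of the ATREP families. Their ratios ran from 0.314 to 1.52 where WT reads existed, inside the ATREP range of 0.0535 to 3.47. HELITRONY2, with 18 reads in caa39 and 0 in WT, was at least 4.53-fold higher in caa39. This bound gives the WT group 3 reads in all and takes the caa39 reads as exact. The median log2 ratio in the authors' deposited table was −0.88 for the 7 ATREP families, −0.87 for the 6 HELITRON families with WT reads and −0.35 for all 83. Among families that fell it was −1.01 for the 6 ATREP and −0.95 for all 43, so the falls of ATREP families were close in size to those of the list.

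Within the Helitron reads the balance moved towards ATREP. The ATREP share was 35.7%, 38.4% and 37.2% in caa39 libraries a, b and c, against 32.2%, 27.8% and 32.4% in WT libraries a, b and c. The libraries did not overlap, and the means were 37.1% ± 1.33 in caa39 and 30.8% ± 2.58 in WT (SD, n = 3 each). Without ATREP15 the share was 30.8% ± 1.03 in caa39 and 29.6% ± 2.26 in WT, and the libraries overlapped (SD, n = 3 each). Without HELITRON1, the most abundant HELITRON family, the ATREP share was 0.474 percentage points higher in caa39 than in WT, against 6.32 points with it. The difference in share therefore rests on ATREP15 and on HELITRON1. HELITRON1 had 673 ± 30.5 normalised reads in caa39 and 1363 ± 8.39 in WT (SD, n = 3 each).

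**Figure D5:**
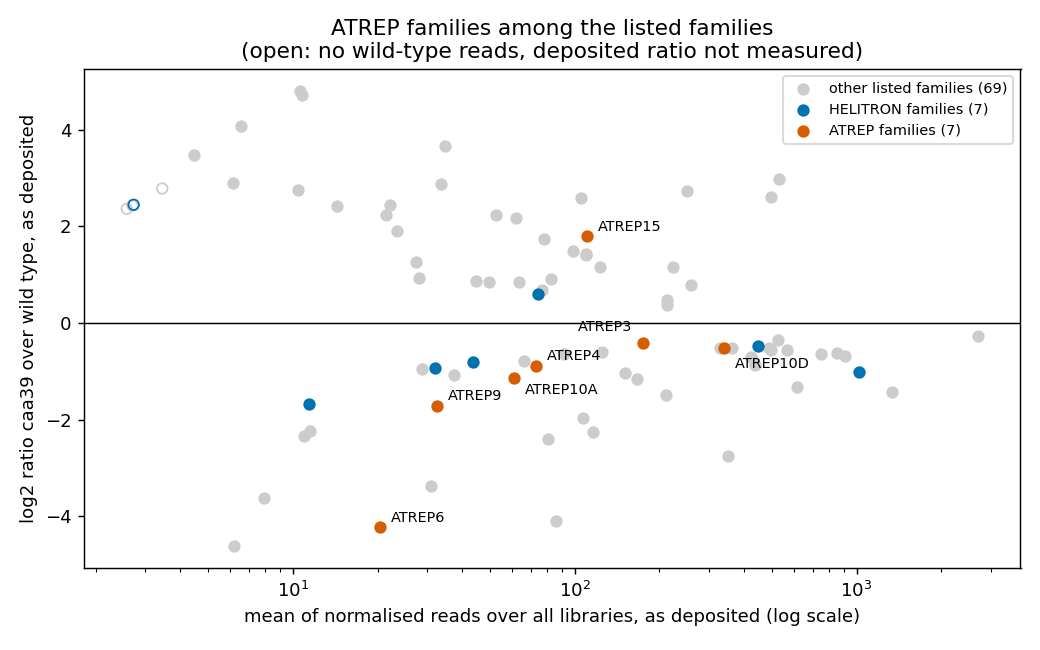
Log2 ratio of caa39 over WT (y axis) against the mean of normalised reads (x axis, log scale), both as deposited, for the 83 listed families, with ATREP in orange, HELITRON in blue and the 69 others in grey. The 7 ATREP families spread from −4.22 to 1.80 and lie among the other listed families at their read level, with ATREP6 near the lower edge; open points have no WT reads.

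The likeness of other families to the summed ATREP reads was measured over the 6 libraries, as the root mean square distance between log2 profiles, each relative to its own mean. Of the 69 families outside the Helitrons, the nearest were ATIS112A, a Harbinger DNA transposon family at a distance of 0.12, ATSINE2A, a SINE retroelement family at 0.14, and ATCOPIA36, a Copia retrotransposon family at 0.15. ATIS112A had 269 ± 22.0 normalised reads in caa39 and 386 ± 31.7 in WT (SD, n = 3 each). ATSINE2A and ATCOPIA36 stood at 0.784 and 0.655 of WT in the authors' deposited table. The 6 libraries are of 2 genotypes, so families with a fall of similar size rank high.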

How the data were processed

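RNA libraries of 3 caa39 and 3 WT samples, grouped by their titles, were compared. Per the submitters' processing notes, the build was TAIR10 and the tools were Bowtie2, FastQC 0.10.1 and edgeR 1.12.0, with no role stated. The sources used here do not say how reads were assigned to families, reads of near-identical copies included. Per the file headers, the deposited signal is the authors' mean of normalised counts, over all libraries and per genotype, the deposited ratio is caa39 over WT with its log2 value, and the deposited p-value is raw and adjusted. The deposited table has 84 entries. The entry of unassigned elements, with 28.3% of the listed reads, entered the listed total only.

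Library counts were solved from the means, which carry 15 digits, as sums of whole reads times 1 constant per library, within tolerances of 1e-14 (relative) and 2e-13 (absolute). With size factors sought between 0.4 and 2.5 and at most 8 reads in the smallest means used, a single set was found per genotype. It was 1.37, 1.21 and 0.914 for caa39 and 0.943, 0.868 and 0.823 for WT. The search ended at the first group of small means that gave a set. All 84 caa39 means and all 78 distinct WT means above 0 had exactly 1 solution, and 0 of 64 slightly shifted caa39 means and 0 of 58 slightly shifted WT means had one. On simulated data all 84 entries were recovered per genotype. Other constants that also give whole reads are not excluded by these checks. In 4 entries, HELITRONY2 among them, a WT signal of 1 is deposited where the overall mean gives 0, and 0 was used. The sources used here do not give the depth of whole libraries.

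Limma 3.58.1 (R 4.3.3) was fitted to log2(normalised reads + 0.5) over the 83 families, with Benjamini-Hochberg adjustment over them. These families had been selected on the same libraries, so its p-values are not independent of the authors'. Adjustment over a list that had all passed also changes little. For ATREP3 the raw limma p of 0.0150 became 0.0165. In the authors' deposited table its raw p of 0.0144 became 0.0416. On simulated data of 83 families limma called 16 of 20 at a 2-fold change, 18 of 20 at 4-fold and 1 of 43 unchanged. That simulation gave all families the same spread beyond counting and applied no selection. It does not cover the wider WT spread of ATREP15 and ATREP4. Python 3.11.15 with scipy 1.17.1 gave exact permutation tests and exact 95% intervals, which cover counting error only. Members, lists and tests were chosen with earlier results of these data known. All 7 ATREP families are named, HELITRON families outside their range, and the 3 families nearest in profile; ATCOPIA50, HELITRONY1C and HELITRON1 were added after their values were seen.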

Additional observations from a re-analysis of the deposited data

How the results depend on the processing

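Of 77 alternative values for the 7 families, 65 kept direction and call, 12 kept direction but lost the call, and 0 changed direction. Most of these values could not have changed direction. The genotypes overlapped in no family, so neither another pseudocount nor a missing library can reverse a ratio. The minimum mean of 20 and the mean-variance trend leave the log2 ratio as it was. Only scaling to the listed reads could have changed a direction. The losses were all of ATREP3, ATREP10D and ATREP4: on the scale of listed reads (limma log2 ratios −0.12, −0.20 and −0.52) and with 3 of the 6 libraries left out in turn, where the values without a call ran from −0.38 to −0.37, −0.45 to −0.41 and −0.75 to −0.68. Over all 6 libraries left out in turn, calls kept included, the ranges were −0.52 to −0.37, −0.64 to −0.41 and −1.10 to −0.68. Families past the threshold numbered 7, and 4 with a 2-fold minimum, 4 in limma on the scale of listed reads, 6 at an adjusted p below 0.01, and 4 to 7 in limma with a library left out. The share of all listed families past it with a library left out was not counted. The log2 ratio of the ATREP sum, −0.37, was −0.0677 on the scale of listed reads and −0.69 without ATREP15, and −0.48 to −0.31 with a library left out. Without ATREP10D it was −0.27, with overlapping genotypes. The ATREP share of Helitron reads, 6.32 percentage points higher in caa39, was 0.474 points higher without HELITRON1. The share of ATREP3 in the ATREP sum differed by −0.963 percentage points (caa39 minus WT), turned to 0.345 without WT library b and ranged from −2.12 to 0.345 with a library left out, inside the spread between libraries. Pairs with separated ratios numbered 17 to 19 with a library left out. A separated pair stays separated with fewer libraries, so this number could not fall below 17. The pseudocounts, a minimum mean of 20 and a mean-variance trend ended no call. The trend, the sum without ATREP15 and the pairs were alternatives chosen after seeing the data. No paired analysis was possible because group means are what the table used here holds, and libraries solved from them have lost their replicate numbers. ATREP6 rests on 7 reads in caa39, and its limma log2 ratio ran from −4.38 to −3.37 over the pseudocounts and from −4.43 to −3.61 with a library left out.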
